A study of Mus musculus with 6 samples.

Results

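The 10 genes described here are the immunity-related GTPases, and close relatives, that lie in 2 clusters on mouse chromosome 11: Irgm1, Irgm2, Igtp, Tgtp1, Tgtp2, Ifi47, Gm12250, Gm12185, Gm5431 and 9930111J21Rik2. They were picked by gene symbol, with their difference between interferon gamma (IFNg) and untreated libraries already known. That difference is therefore given as a description, without a test. All 10 symbols were among the 23127 genes of the table, and all 10 were among the 16095 genes tested, which averaged 10 scaled counts or more over the libraries, a scaled count being a read count divided by its library's size factor. Each of them also averaged at least 10 scaled counts in the untreated libraries alone, the lowest being Gm5431 at 10.7. For Gm5431 that mean rests on 1 library, its untreated values being 3.16, 25.8 and 3.09.

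Immunity-related GTPases are made in response to interferons and act inside the cell that makes them. They bind guanine nucleotides and gather on the membranes of vacuoles in which microbes such as Toxoplasma and Chlamydia grow. Members named GKS, after the letters of their nucleotide-binding P-loop, attack the vacuole, while members named GMS sit on the cell's own membranes, keep the GKS proteins inactive there and take part in autophagy. In the mouse gut, Irgm1 is known for its part in keeping Paneth cells and the epithelium intact during inflammation.

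The study asked how intestinal stem cells respond to IFNg, a cytokine of T and natural killer cells. RNA was sequenced from cells with a high signal of the Lgr5-GFP reporter, which marks crypt base stem cells, taken from small intestines of C57BL/6 mice. The IFNg group held 3 libraries (6, 2 and 10 by the numbers that end their titles), from cells given 1 ng/ml IFNg for 1.5 h in medium that held EGF, Noggin and R-spondin1. The untreated group held 3 libraries (5, 1 and 9) from reporter cells of the same kind, labelled as having no treatment. Their titles carry the same 1.5 as those of the IFNg libraries. Both groups carry the reporter, and no age or sex of the mice is given. The labels do not say whether each library is a different animal. The p-values hence rest on the spread among these 6 libraries alone, and that spread may be technical. The titles of libraries 6 and 5 hold the tag GFP1 and those of 2, 10, 1 and 9 the tag GFP3, with no explanation of either.

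The libraries held 28508762 to 40224497 reads in genes. Of 9 stem cell markers, Lgr5 was at 2484 to 5309.6 scaled counts in the IFNg libraries and 2801 to 8499 in the untreated ones. Olfm4 was at 225396 to 240556 in the IFNg libraries and 219689 to 266604 in the untreated ones. The 9 markers did not all move alike: 4 had a log2 change above 0, and the median was -0.05. Smoc2 averaged 21417 scaled counts after IFNg and 9741 in untreated cells, and Ascl2 686 and 358. In limma 0 of the 9 were called (adjusted p below 0.05). In the GFP3 libraries alone 3 were called higher, where 8.27% of tested genes were. Of 19 leukocyte markers 13 were in the table, and together they summed to 148 to 204 scaled counts in the IFNg libraries and 115 to 204 in the untreated ones. Among these, Cd3e was at 0 to 10.6 scaled counts in IFNg libraries and 0 to 6.18 in untreated ones, and Ptprc at 11.1 to 41.2 in IFNg libraries and 20.6 to 33.7 in untreated ones. Summed markers of Paneth cells, the secretory neighbours of crypt stem cells, were at 24691 to 203546 scaled counts in IFNg libraries and 109281 to 365168 in untreated ones. Their part in the results was not tested. In sorted bulk samples, fewer cells that make a transcript and less of it per cell cannot be told apart.

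The first cluster holds 7 of the genes in 235 kb (mm10, chromosome 11, bases 48861968 to 49096974). In order they are Irgm1, Gm5431, Gm12185, Tgtp1, 9930111J21Rik2 and Tgtp2 on the minus strand and Ifi47 on the plus strand. The second cluster lies 9.09 Mb further on, spans 35.0 kb (58187739 to 58222782) and holds Gm12250, Igtp and Irgm2, all on the plus strand. The RefSeq table for this build lists Gm12250 as Irgb10, Igtp as Irgm3, Gm12185 as Irgb2b1, Gm5431 as Irgb9b8, 9930111J21Rik2 as Irgb5 and Ifi47 as Irgd. GENCODE M21 types Gm12250 as a processed pseudogene, and RefSeq types it as protein coding. The RefSeq promoter of Gm12250 used below (58183593 to 58183892) lies upstream of its GENCODE model and outside the span given. Its promoter and its exon length hence come from gene models with different starts.

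The coding sequence at the P-loop separates the regulators from the effectors and is shown for that reason. The stretches below were read from GENCODE M21 transcripts (mm10), in the longest open reading frame of each gene, and capitals mark the codon at which GMS and GKS differ.
Irgm1: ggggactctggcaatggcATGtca
Tgtp1: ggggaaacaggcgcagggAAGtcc
Ifi47: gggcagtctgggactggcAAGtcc
Gm12250: ggggagacaggggcagggAAGtcc
Gm12185, copy 1: ggggagactggggctggaAAGtcc
Irgm2 and Igtp have the same 24 bases as Irgm1, and Tgtp2 has those of Tgtp1. Gm12185, Gm5431 and 9930111J21Rik2 hold 2 such stretches each in frames of 835, 844 and 844 codons, while the other 7 genes hold 1 each in frames of 407 to 423 codons.

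Promoters are shown because interferons act on these genes through 2 short DNA elements. The GAS element is the one through which IFNg signals most directly, and interferon regulatory factors bind the ISRE. RefSeq promoters (GRCm38.p6, 250 bases before to 50 after each start) were searched on both strands for the GAS letters TTCNNNGAA and for the ISRE letters, which are GAAA, any 2 bases and GAAA again; matches may overlap. In the windows below, 5′ to 3′ on the strand of the gene, capitals mark the matches.
Irgm1 (chr11:48871428-48871457, minus strand): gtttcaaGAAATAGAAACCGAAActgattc
Irgm2 (chr11:58214898-58214927, plus strand): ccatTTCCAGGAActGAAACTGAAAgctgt
Igtp (chr11:58199507-58199536, plus strand): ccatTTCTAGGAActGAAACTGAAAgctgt
Tgtp1 (chr11:48992309-48992338, minus strand): ccatTTCCAGGAAtcGAAACTGAAAcctac
Tgtp2 (chr11:49064268-49064297, minus strand): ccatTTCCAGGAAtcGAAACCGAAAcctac
Gm12185 (chr11:48927243-48927272, minus strand): ccatTTCCAGGAAtaGAAAGTGAAAcctac
Gm12250 (chr11:58183780-58183809, plus strand): tgTTCTCAGAAatctgcTTTCAGTTTCatg
In Irgm2, Igtp, Tgtp1, Tgtp2 and Gm12185 the GAS match ended 2 bases before the ISRE match, and the ISRE match began 34 to 77 bases upstream of the start. Irgm1 had 2 overlapping ISRE matches, the first beginning 30 bases upstream, and no GAS match. Gm12250 had 2 ISRE matches on the opposite strand, the nearer one 6 bases after a GAS match. No match to either set of letters was found in this window for Gm5431, 9930111J21Rik2 or Ifi47, which says nothing of other starts or distances. A GAS match stood in 8.30% of all 32841 promoters of this length, an ISRE match in 3.44%, and both within 10 bases of each other in 0.0670% (22 promoters, 6 of them of the genes described here).

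**Figure D1:**
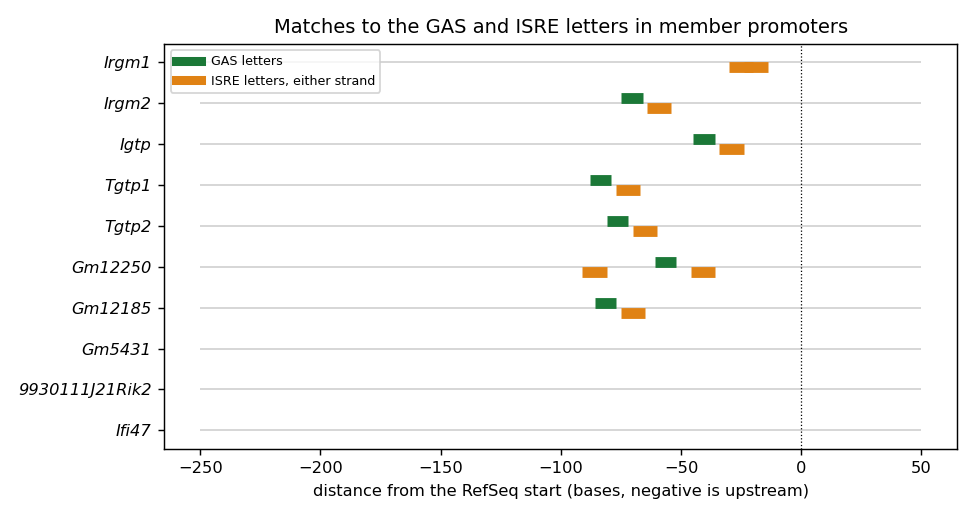
Position of each match to the GAS letters (green) and ISRE letters (orange, either strand) along the promoter of each gene, in bases from the RefSeq start. In 5 genes a GAS match stands directly before an ISRE match, 2 bases away, and the 3 rows at the bottom hold neither.

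After IFNg, the whole group stood far above its untreated level. Reads of the 10 genes made up 0.516%, 0.537% and 0.425% of all reads in genes in IFNg libraries 6, 2 and 10, against 0.00956%, 0.00731% and 0.00676% in untreated libraries 5, 1 and 9. Log2 changes, on the log2(scaled count + 1) scale, ran from 3.47 for 9930111J21Rik2 to 7.12 for Gm12185, with a median of 6.39 beside a median of -0.08 over all tested genes. In each of the 10 genes every IFNg library was above every untreated library, as it was for 8.13% of all tested genes. In limma all 10 were called higher (adjusted p below 0.05), where 0.416% of all tested genes were and 0.0124% were called lower. Since this contrast chose the genes, nothing is read from that count.

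**Figure D2:**
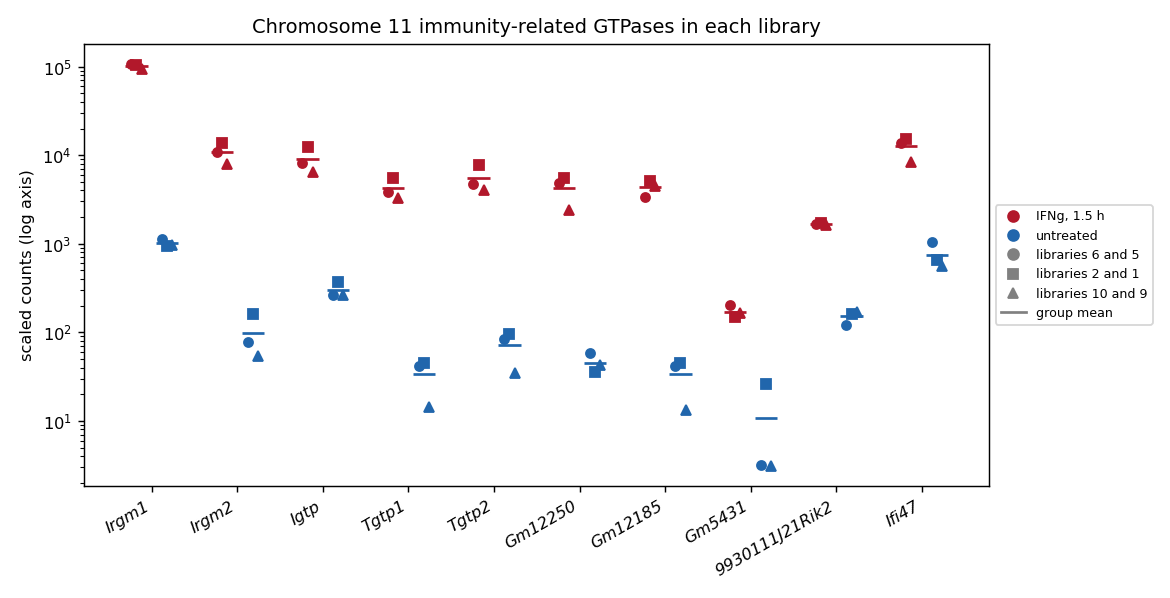
Scaled counts (log axis) of each gene in the 3 IFNg libraries (red, left) and the 3 untreated libraries (blue, right), with bars at group means; marker shape joins libraries with neighbouring title numbers. Irgm1 lies highest after IFNg, at 94010.3 to 106819 scaled counts, and Gm5431 lowest, at 148 to 202.

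Of the GMS regulators, Irgm1, which acts on autophagy and on vacuoles of intracellular bacteria, had 106819, 103897 and 94010.3 scaled counts in IFNg libraries 6, 2 and 10, against 1138, 937 and 966 in untreated libraries 5, 1 and 9. The 3 values within each group lay close together. The mean was 101575 ± 6713 after IFNg and 1014 ± 109 in untreated cells (SD, n = 3 each), a ratio of 100.2. Irgm2, the GMS protein of the Golgi, had 10727, 13825 and 7929.8 scaled counts in IFNg libraries 6, 2 and 10 and 76.9, 163 and 53.6 in untreated libraries 5, 1 and 9. Untreated 1 was the high one of its group, and the ratio of the means, 111, became 166 without it. Igtp, a GMS protein of the endoplasmic reticulum and lipid droplets, had 8174, 12288 and 6408 scaled counts in IFNg libraries 6, 2 and 10 and 267, 366 and 263 in untreated libraries 5, 1 and 9. Library 2 of the IFNg group and library 1 of the untreated group were each the highest, and the log2 change was 4.87 ± 0.314 (SE). Igtp and Irgm2 share 162 exon bases on the same strand in GENCODE, and reads from those bases match both. The deposited values set ambiguous reads apart (0.948% to 1.20% of all values), so such reads may be counted for neither gene.

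Among the GKS effectors, Tgtp1 and Tgtp2 are near-identical genes for one of the first GTPases to load onto the Toxoplasma vacuole. Tgtp1 had 3851, 5581 and 3299 scaled counts in IFNg libraries 6, 2 and 10, against 42.1, 44.7 and 14.4 in untreated libraries 5, 1 and 9. Tgtp2 had 4735, 7654 and 4018 in IFNg libraries 6, 2 and 10, against 84.3, 96.4 and 35.0 in untreated libraries 5, 1 and 9. In both genes library 2 was the highest of the IFNg group and library 9 the lowest of the untreated group, and the ratios of the means were 126 for Tgtp1 and 76.1 for Tgtp2. Of the words of 50 bases in their transcripts, 81.2% for Tgtp1 and 86.6% for Tgtp2 also occurred in transcripts of another gene, chiefly each other. Reads with more than 1 alignment were set apart in the deposited table, so the values of both come from what is left and are uncertain.

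Gm12250, the GKS protein that attacks bacterial membranes and vacuoles under the name Irgb10, had 4906, 5571 and 2422 scaled counts in IFNg libraries 6, 2 and 10 and 59.0, 35.3 and 42.2 in untreated libraries 5, 1 and 9. Library 10 was low within the IFNg group, and the means of 4299.9 ± 1659.5 after IFNg and 45.5 ± 12.2 in untreated cells (SD, n = 3 each) gave a ratio of 94.5. None of its words of 50 bases occurred in another gene's transcripts. Ifi47, an early described interferon-inducible GTPase, had 13808, 15405 and 8485 scaled counts in IFNg libraries 6, 2 and 10 and 1038, 651 and 563 in untreated libraries 5, 1 and 9. Untreated 5 was the high one, and the ratio of the means was 16.7. Ifi47 shares 111 exon bases with Olfr56 on the same strand and 106 with the pseudogene Gm12188 on the other.

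The 3 genes with 2 P-loops, whose roles are little known, differed widely in level. Gm12185 had 3414, 5149.5 and 4441 scaled counts in IFNg libraries 6, 2 and 10, against 42.1, 45.6 and 13.4 in untreated libraries 5, 1 and 9, a ratio of means of 129. It shares 223 exon bases with Tgtp1 on the same strand. Untreated 9 was the low library in both, as it also was in Irgm2, Igtp, Tgtp2, Ifi47 and Gm5431. Of the words of 50 bases in Gm12185, 19.5% were shared with other genes. In GENCODE it reaches across 9930111J21Rik1 to the start of Tgtp1, which RefSeq does not show. 9930111J21Rik2 had 1666, 1727 and 1618 scaled counts in IFNg libraries 6, 2 and 10 and 122, 163 and 169.9 in untreated libraries 5, 1 and 9, the tightest IFNg values of the 10 genes in proportion to their mean (1670.4 ± 54.6, SD, n = 3). Its log2 change was 3.47 ± 0.275 (SE), and 59.8% of its words of 50 bases were shared, mostly with 9930111J21Rik1, so its value is uncertain too. Gm5431 had 202, 148 and 164 scaled counts in IFNg libraries 6, 2 and 10 and 3.16, 25.8 and 3.09 in untreated libraries 5, 1 and 9, with 37.3% of its words shared. Those untreated values rest on 3, 30 and 3 reads, and 3 reads is the limit that a count of 0 allows. Untreated 1 decides the size of the change: the ratios within pairs were 64.0 for IFNg 6 over untreated 5, 5.72 for IFNg 2 over untreated 1 and 53.1 for IFNg 10 over untreated 9, and the ratio of group means was 54.8 without untreated 1. In edgeR, where 0.360% of tested genes were called higher and 0.0124% lower, Gm5431 was the 1 gene of the 10 not called. In DESeq2, where the shares were 2.84% and 0.0497%, all 10 were called.

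**Figure D3:**
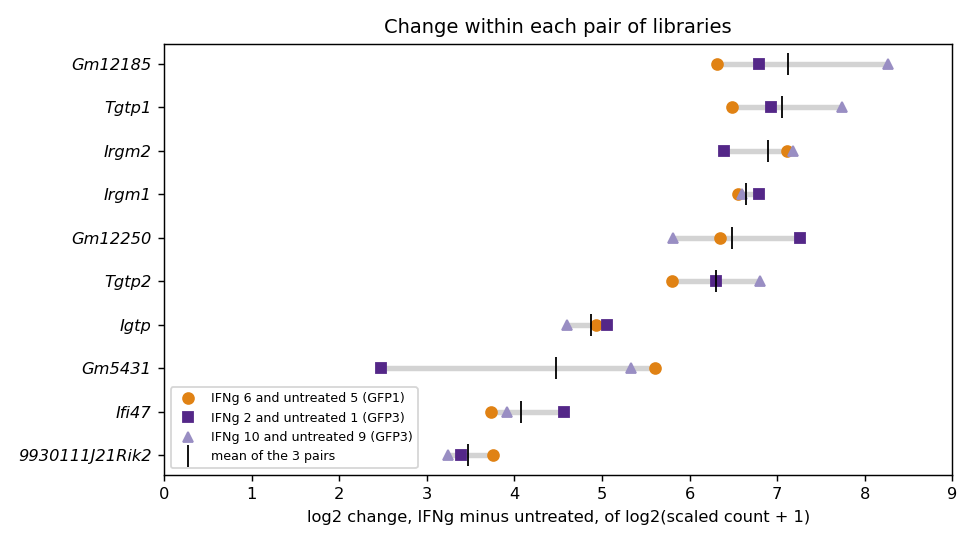
Log2 change of each gene (IFNg minus untreated, log2(scaled count + 1)) within each pair of libraries with neighbouring title numbers, with the mean of the 3 pairs as a vertical tick. The pairs of Irgm1 lie together at 6.55 to 6.79, while those of Gm5431 run from 2.47 to 5.61 and those of Gm12185 from 6.31 to 8.27.

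The pairs of libraries with neighbouring numbers gave each gene's change 3 times. The median change of the 10 genes was 6.05 between IFNg 6 and untreated 5, 6.35 between IFNg 2 and untreated 1 and 6.21 between IFNg 10 and untreated 9, on the log2 scale. Irgm1 had changes of 6.55, 6.79 and 6.60 in these pairs. Within a pair, counting error alone put the 95% exact interval of the Irgm1 ratio at 88.4 to 99.8, 104 to 118 and 91.3 to 104. Gm12185 varied more, at 6.31, 6.79 and 8.27, and its ratio in the last pair had an interval of 194 to 623 because untreated 9 held 13 reads. Gm5431 stood at 5.61, 2.47 and 5.33, with an interval of 21.6 to 312 for its ratio in the first pair. These intervals cover counting error only, since the reads carry no molecular identifiers.

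Whether the change differed between the title tags was tested, as the choice of genes had not used it. Of the 10 genes 0 passed in limma's interaction test, in edgeR or in DESeq2, and 0 had an unadjusted p under 0.05. Over all 16095 tested genes limma and edgeR called 0 and DESeq2 called 681 (4.23%), and 2117 had an unadjusted p under 0.05 in limma. The largest differences were in Gm5431, whose change was larger by 1.71 ± 1.41 (SE) in GFP1 (adjusted p = 0.727 in limma), and in Gm12185, whose change was smaller in GFP1 (adjusted p = 0.674 in limma). In Irgm1 the difference was -0.15 ± 0.40 (adjusted p = 0.926). With 1 GFP1 library per group, the GFP1 libraries are assumed to vary like the others, and with standard errors of 0.40 to 1.41 log2 units a difference of that size was not detectable. Within the GFP3 libraries the mean change was 6.70 for Irgm1, 7.53 for Gm12185 and 3.90 for Gm5431.

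Levels of different genes were compared per kb of exon. After IFNg, Irgm1 stood at 17483 ± 1155 scaled counts per kb (SD, n = 3), above the range of every other gene of the group. Ifi47 (5081), Igtp (4429.5), Gm12250 (3375) and Irgm2 (2934) followed, and the ranges of neighbours in that order overlapped, as did those of Irgm2 and Tgtp2 (1861) and of Tgtp2 and Tgtp1 (1324). Gm12185 (776), 9930111J21Rik2 (238) and Gm5431 (44.3) came last, each apart from its neighbours. In untreated cells the order was led by Ifi47 at 304 ± 102 scaled counts per kb, ahead of Irgm1 at 174 ± 18.7 and Igtp at 148 ± 29.1, and the ranges of Irgm1 and Igtp overlapped. The other 7 genes lay between 2.77 for Gm5431 and 35.7 for Gm12250.

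The make-up of the group, as each gene's share of the summed level per kb of exon, is given as a description. Irgm1 held 47.8%, 40.8% and 53.4% of the summed per-kb level in IFNg libraries 6, 2 and 10, against 22.2%, 21.1% and 27.0% in untreated libraries 5, 1 and 9. Ifi47 held 14.5%, 14.2% and 11.3% in IFNg libraries 6, 2 and 10, against 47.6%, 34.5% and 37.0% in untreated libraries 5, 1 and 9. Igtp held 10.5% to 13.9% in IFNg libraries and 14.9% to 23.8% in untreated ones. When length was counted only over words of 50 bases found in no other gene, a count added after the data were seen, Tgtp2 moved up to 14095 ± 4965 per kb after IFNg (SD, n = 3), a range that overlapped that of Irgm1 (17558 ± 1160.3). In untreated cells it then came second at 185 ± 83.7, in a range that overlapped that of Ifi47 (313 ± 105). By that length Irgm1 held 32.9%, 25.3% and 35.9% of the sum in IFNg libraries 6, 2 and 10, against 16.5%, 14.5% and 21.5% in untreated libraries 5, 1 and 9. Ifi47 held 10.3%, 9.06% and 7.81% in IFNg libraries 6, 2 and 10, against 36.4%, 24.3% and 30.3% in untreated libraries 5, 1 and 9. The sizes of the shares, and the order of the genes, thus depend on how shared sequence is counted, while by both lengths Irgm1 was higher and Ifi47 lower in every IFNg library than in any untreated one.

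The 7 genes with an ISRE match in the promoter window had log2 changes of 4.87 (Igtp) to 7.12 (Gm12185). The 3 with no match had 3.47 (9930111J21Rik2), 4.07 (Ifi47) and 4.47 (Gm5431). Without untreated 1, Gm5431 had 5.37 and Igtp 5.02, so the order of Igtp and Gm5431 rests on that library. These values describe 10 chosen genes, several of which are copies of each other, and no test was made.

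**Figure D4:**
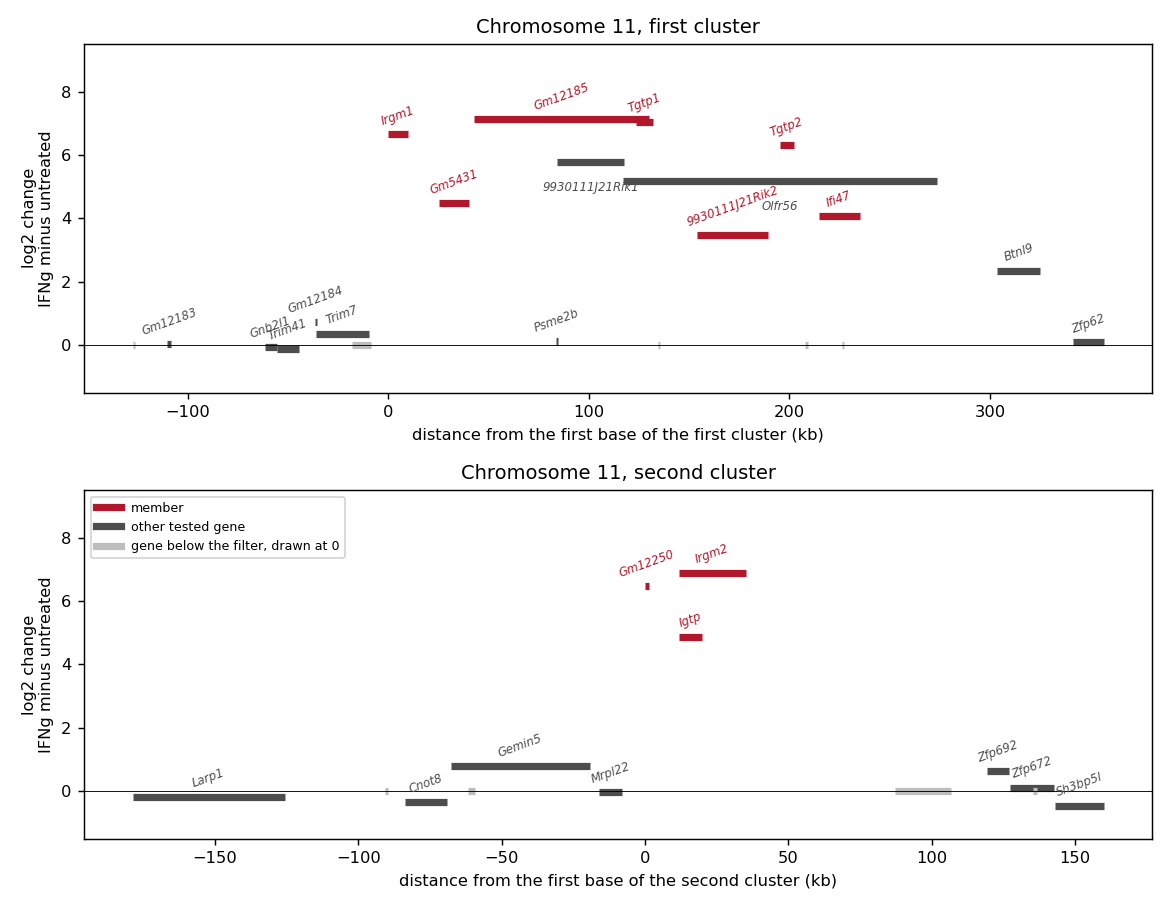
Log2 change (IFNg minus untreated) of each gene drawn along both clusters, against distance in kb from the first base of the cluster; red marks the 10 genes described, dark grey other tested genes and light grey genes below the filter, drawn at 0. Outside the clusters the nearest tested genes lie at -0.03 (Mrpl22), 0.36 (Trim7), 0.63 (Zfp692) and 2.35 (Btnl9).

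Genes chosen by position alone, the 10 nearest on each side of each cluster and those between the members, gave 45 genes, 27 of them tested. Of these 0 were called in limma or edgeR and 3 in DESeq2, where 0.416%, 0.360% and 2.84% of all tested genes were called higher, so a count of 0 among 27 says little about the neighbours. In limma 3 had an unadjusted p under 0.05, beside 9.22% of all tested genes. Their median log2 change was 0.11. The nearest tested neighbours of the first cluster were Trim7, a ubiquitin ligase gene (log2 change 0.36, limma adjusted p = 0.910), and Btnl9, a butyrophilin-like gene (56.2 scaled counts after IFNg and 10.8 in untreated cells, limma adjusted p = 0.236, DESeq2 0.00766). Those of the second were Mrpl22, a mitochondrial ribosomal protein gene (-0.03, limma adjusted p = 0.988), and Zfp692, a zinc finger gene (0.63, limma adjusted p = 0.569).

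A pair of genes inside the first cluster lay just outside the threshold. 9930111J21Rik1, a further GTPase of the same family, had 382, 402 and 411 scaled counts in IFNg libraries 6, 2 and 10 and 0, 18.1 and 19.6 in untreated libraries 5, 1 and 9. No IFNg library came near an untreated one, yet the limma adjusted p was 0.0656 (log2 change 5.77 ± 1.030 SE). It was 9.18e-04 without untreated 5 and 8.27e-10 in DESeq2, with a range of 8.27e-10 to 0.261 over the alternatives. In limma it also passed with a pseudocount of 8 (0.00253), with the title tag as a term (0.0158) and in the GFP3 libraries alone (6.03e-04). Of the words of 50 bases in 9930111J21Rik2, 56.1% also occurred in 9930111J21Rik1, so the values of 9930111J21Rik1 are uncertain too. Olfr56, an olfactory receptor gene whose annotated transcripts run across much of the cluster, had 548, 291 and 196 in IFNg libraries 6, 2 and 10 and 1.05, 25.8 and 11.3 in untreated libraries 5, 1 and 9 (limma adjusted p = 0.0519). It passed without untreated 5 (0.0121), without untreated 1 (0.0395) and in DESeq2 (5.53e-08), but not in edgeR (0.0651), with a range up to 0.208. In limma it also passed with a pseudocount of 8 (0.00968), without a filter (0.0434) and with TMM scaling (0.0457). The same held with the title tag as a term (0.0408) and in the GFP3 libraries alone (0.00381). Olfr56 overlaps Ifi47 on the same strand and Gm12185, 9930111J21Rik2 and the Tgtp genes on the other, and the strand setting of the counting is not given, so its reads are uncertain.

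Of the other immunity-related GTPases 7 were tested, but 3 of these (BC023105, Gm4841 and Gm4951) averaged under 10 scaled counts in untreated cells and entered only through their IFNg values. Among the other 4, limma called 2 higher, beside 0.416% of all tested genes. The list was set with earlier results of these data known, so its counts are a description. Iigp1, the GKS effector of chromosome 18, rose to 26959 ± 11019 scaled counts after IFNg, against 104 ± 49.5 in untreated cells (SD, n = 3 each, limma adjusted p = 1.00e-04). F830016B08Rik rose by 5.99 ± 0.562 (SE) on the log2 scale (limma adjusted p = 0.00124). BC023105 and Gm4841 had 2085 and 880 reads after IFNg and 1 and 3 reads in untreated cells. Having passed the filter only through the group where they are high, they had to differ, and their calls in limma support nothing. Irgq, a GTPase relative named after its values were seen, had 188, 338 and 1534 scaled counts in IFNg libraries 6, 2 and 10 and 215, 189 and 187 in untreated libraries 5, 1 and 9. Its high mean after IFNg came from library 10, and it did not pass (limma adjusted p = 0.695).

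Guanylate-binding proteins, larger GTPases that work with this family on vacuoles, had 8 tested genes. Of these, 7 averaged at least 10 scaled counts in untreated cells, and limma called 5 of the 7 higher, beside 0.416% of all tested genes. As this list too was set with earlier results known, its counts are a description. Gbp5 entered only through its IFNg values. Of all 8, edgeR called 5 higher and DESeq2 6, Gbp5 included, where 0.360% and 2.84% of all tested genes were called higher. Gbp2 rose by 7.90 ± 0.375 (SE) on the log2 scale (limma adjusted p = 2.64e-05) and Gbp7 by 6.85 ± 0.289 (1.82e-05). Gbp3 rose by 4.61 ± 0.302 (limma adjusted p = 1.25e-04). Gbp4 passed at 0.0347 in limma. It missed the threshold when pairs were added as a block (0.0539), a fit that called 0.460% of tested genes higher and 0.00621% lower, and also without IFNg 6 (0.0603), IFNg 2 (0.137), IFNg 10 (0.132) and untreated 1 (0.115), with a range of 1.29e-09 to 0.137 over the alternatives. Gbp8, named after its values were seen, was at 62.7 scaled counts after IFNg and 86.2 in untreated cells (limma adjusted p = 0.886).

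The GTPases need the conjugation system of autophagy to reach vacuoles. Of 37 tested autophagy genes 0 were called in limma or edgeR and 1 in DESeq2, which was Wipi2, beside shares over all tested genes of 0.416%, 0.360% and 2.84% called higher. These counts of called genes over all 6 libraries are near those shares and are no result about autophagy genes. An unadjusted p under 0.05 in limma was found for 8 of the 37, a larger share than the 9.22% of all tested genes. In the 4 GFP3 libraries alone 8 were called higher, where 8.27% of tested genes were called higher and 0.0681% lower. That share of the list was larger too, and the reason was not tested. The median log2 change of the 37 genes was -0.13. Atg5, part of the conjugating enzyme, was at 2297 scaled counts after IFNg and 2388 in untreated cells (log2 change -0.10, limma adjusted p = 0.963). Atg7, the enzyme that starts conjugation, was at 1277 after IFNg and 1742 in untreated cells (-0.38, limma adjusted p = 0.879). Gabarapl2, a ubiquitin-like protein that helps to keep the GTPases off the wrong membranes, was at 1069 after IFNg and 1183 in untreated cells (-0.13, limma adjusted p = 0.948). Atg16l1, which places the complex on membranes, had 1914, 2853 and 2691 scaled counts in IFNg libraries 6, 2 and 10 and 1588, 1146 and 725 in untreated libraries 5, 1 and 9. Its groups did not overlap, but it did not pass (log2 change 1.16 ± 0.341 SE, limma adjusted p = 0.307, and 0.0103 in the GFP3 libraries alone).

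Among 10 ubiquitin and galectin factors of damaged vacuoles 1 was called in limma and edgeR and 3 in DESeq2, beside 0.416%, 0.360% and 2.84% of all tested genes called higher. Earlier results of these data were known when the list was set, so the counts are a description. Trim21, a ubiquitin ligase and antibody receptor of the cytosol, rose to 1477, 1743 and 1252 scaled counts in IFNg libraries 6, 2 and 10, against 281, 416 and 215 in untreated libraries 5, 1 and 9 (log2 change 2.33 ± 0.322 SE, limma adjusted p = 0.0168). It did not pass without untreated 9 (0.0874), IFNg 2 (0.127) or IFNg 10 (0.0557), with a range of 1.44e-09 to 0.127.

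In the signalling route from IFNg to these promoters, 6 of 18 tested genes were called higher in limma, 5 in edgeR and 9 in DESeq2. Over all tested genes the shares called higher were 0.416%, 0.360% and 2.84%. The counts are a description, since this list was also set with earlier results known. The receptor chains and kinases did not pass in limma: log2 changes were -0.71 for Ifngr1 (adjusted p = 0.561), 0.40 for Jak1 (0.866) and 1.16 for Jak2 (0.280, and 0.00704 in DESeq2). Ifngr2, the second receptor chain, was at 3249 scaled counts after IFNg and 1645 in untreated cells (limma adjusted p = 0.403, and 0.0228 without untreated 5). Irf1, which binds ISRE, rose to 59642 scaled counts after IFNg, against 1773 in untreated cells (limma adjusted p = 2.33e-05). The inhibitors Socs1 and Socs3 rose by 7.34 and 3.70 on the log2 scale (limma adjusted p = 0.00124 and 0.00140). Stat2 rose by 3.11 (limma adjusted p = 0.0333), but missed the threshold with the block for pairs (0.0691), in edgeR (0.0556), and without untreated 9 (0.123), IFNg 6 (0.0653), IFNg 2 (0.128) and IFNg 10 (0.122), with a range from 5.90e-07.

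The genes whose log2 values over the 6 libraries followed the mean profile of the 10 genes most closely were Irf8 (Pearson r = 0.9993), Gbp3 (0.9984), Iigp1 (0.9983), Irf9 (0.9977) and Batf2 (0.9970). These coefficients describe 6 libraries over which the profile of the 10 genes differs above all by treatment, and ignore the size of the change. By size, the nearest to the median pair changes of the group were Batf2, a transcription factor of the AP-1 family, with 3628 ± 783 scaled counts after IFNg and 56.8 ± 16.7 in untreated cells (SD, n = 3 each), then F830016B08Rik and Apol10b. Apol10b had 0, 0 and 1.03 scaled counts in untreated libraries 5, 1 and 9. It entered only through its IFNg values, so nothing is read from its likeness. Irf8 had 17023 ± 1490.3 scaled counts after IFNg and 2469 ± 385 in untreated cells, a smaller change of 2.79 on the log2 scale.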

How the data were processed

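The deposited values are a signal, gene counts already scaled by DESeq, per the name the authors gave the file. Per the submitters' processing notes, the tools were STAR 2.5.0a, HTSeq 0.5.3, cutadapt 1.6 and DESeq 1.22.1 with build mm10, with no roles stated. Neither the annotation used for counting nor its strand setting is stated. Rows that name no gene (4, with 18.5% to 25.0% of all values in reads of more than 1 alignment) were left out. Dividing each library's values by what 1 read is worth gave whole reads for 100% of 138762 values, within 0.01. The gene symbols chosen, the lists, the tests and the rule for named genes were set with earlier results of these data known: in each list the 4 called genes that changed most, fixed pathway genes, nearest neighbours and the most alike genes are named. One gene that this rule names, and one of the sequences, are not reported here.

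Limma 3.58.1 (R 4.3.3, trended robust prior, two-sided, Benjamini-Hochberg) was run on log2(scaled count + 1) for genes with a mean of at least 10, and tested on simulated data. These reads were used for edgeR 4.0.16 and DESeq2 1.42.0. Neighbouring title numbers were taken as pairs because deviations from group means correlated at 0.302, 0.404 and 0.252, a pairing drawn from the data. Ratios within pairs have exact conditional binomial intervals. Coordinates, exons and transcripts are from GENCODE M21 (mm10), promoters from RefSeq.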

Additional observations from a re-analysis of the deposited data

How the results depend on the processing

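All 10 log2 changes stayed above 0 under each alternative, and 148 of 150 values moved by less than their SD over the pairs (Irgm2 was 7.34 without untreated 1 and Igtp 4.61 without IFNg 2). The median over the 10 genes, 6.39, was 6.21 with a pseudocount of 8, 6.54 in the GFP3 libraries alone and 6.14 to 6.60 leaving out 1 library. Genes called over the whole table numbered 69, but 465 in DESeq2, 111 with the title tag as a term, 1348 in the GFP3 libraries alone and 42 to 369 leaving out 1 library (369 without untreated 5, 42 without IFNg 2 and 44 without IFNg 10). Autophagy genes called were 0, but 1 in DESeq2 and 8 in the GFP3 libraries. Vacuole factors called were 1, but 3 in DESeq2, 2 in the GFP3 libraries and 0 to 1 leaving out 1 library. Signalling genes called were 6, but 10 in the GFP3 libraries, and 5 to 7 leaving out 1 library. Flanking genes called were 0, but 2 with a pseudocount of 8, 1 without a filter, 1 with TMM scaling, 3 in DESeq2, 2 with the title tag as a term, 4 in the GFP3 libraries and 0 to 2 leaving out 1 library. The causes were not tested. Other GTPase and guanylate-binding protein counts stayed within 1.5 times. With the replicate block of pairs, 75 genes were called. Of the genes named outside the 10, Gbp4 and Stat2 lost their call. Gbp5 gained a call, its limma adjusted p being 0.107 without the block and 0.0386 with it. Titles share no replicate number between the groups, so this pairing rests on the data. Reads with more than 1 alignment limit the values of Tgtp1, Tgtp2, 9930111J21Rik2 and Gm5431, and to a lesser degree Gm12185 (19.5% of words shared).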

Other observations

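A pair of pseudogenes in the first cluster, both below the filter on low values and chosen after their values were seen, had reads mainly after IFNg. Gm12187, an unprocessed pseudogene between Tgtp2 and Ifi47, had 23, 18 and 23 reads in IFNg libraries 6, 2 and 10, against 1, 0 and 0 in untreated libraries 5, 1 and 9. The ratio over the groups was 58.9, with an exact 95% interval of 10.2 to 2362 for counting error. Gm12188, a processed pseudogene inside Ifi47 on the other strand, had 17, 26 and 19 reads in IFNg libraries 6, 2 and 10 and 0, 0 and 1 in untreated libraries 5, 1 and 9. It shares exon bases with Ifi47, and without a known strand setting its reads cannot be told from those of Ifi47.

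A GAS match and an ISRE match within 10 bases of each other also stood in the promoters of 15 other genes, a list made after the promoters of the 10 GTPases were seen. Of these, 9 were in the table and 7 were tested. In limma, edgeR and DESeq2 0 of the 7 were called, where 0.416%, 0.360% and 2.84% of all tested genes were called higher, and 0 had an unadjusted p under 0.05 in limma, beside 9.22% of all tested genes. With 7 genes and such shares, the count says nothing about promoters that hold both matches. Named after their values were seen, Irf2, an interferon regulatory factor, was at 1422 scaled counts after IFNg and 1715 in untreated cells. Ifitm3, an antiviral membrane protein gene, was at 10758 and 9432, and Bst2, which tethers viruses, at 374 and 277, in IFNg and untreated cells. Their median log2 change was 0.34 over the 7 genes.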
